A study of Vitis vinifera with 24 samples.

Results

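Genes that were lower in salt-treated grapevine leaves but not lowered to the same degree by cold make up the set described here. They are the 70 genes, of 20053 expressed genes and 35840 in the deposited table, whose mean log2(FPKM + 1) was at least 1 lower in NaCl than in control leaves and less than 1 lower in cold than in control leaves. FPKM is the number of sequenced fragments scaled to transcript length and to library size, and a gene counted as expressed at 1 FPKM or more in at least 3 libraries. They were selected on the NaCl, cold and control values themselves, so these 2 contrasts are described for the members without a test. Membership also depended on the scaling of the libraries, since the same limits gave 150 genes after median-of-ratios scaling, all 70 members among them.

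RNA was sequenced from leaves of self-rooted greenhouse cuttings of Vitis vinifera 'Thompson Seedless', in 8 groups of 3 biological replicates. The groups received NaCl, low temperature (4 ℃, called cold), PEG6000, trehalose with NaCl, trehalose with 4 ℃, trehalose with PEG6000, or trehalose alone, and the last group was the untreated control. The labels give 48 h for every treated group and no time for the control, and they name no dose, no batch and no order of trehalose and stress. Whether the replicates are different plants is not stated, and each p-value reflects only how these libraries vary, which may be technical variation.

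Salt in the root zone lowers the water available to a plant and, as sodium and chloride build up, adds ion toxicity in the leaf. PEG6000, a polyethylene glycol, lowers water potential without adding those ions, while chilling slows enzymes and stiffens membranes, so the treatments overlap in part. Trehalose is a sugar built of a pair of glucose units, and its phosphorylated precursor is known in plants as a signal of sugar status. The deposited table identifies genes by number only, and 0 of those numbers occur in the RefSeq gene table at hand, so no function is attached to any member and leaf cell types could not be checked by markers. For that reason the genes are ordered below by their response, with at most 2 that rose and 2 that fell named for a comparison.

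Libraries of a group lay close together, with Pearson correlations of log2(FPKM + 1) between 0.994 and 0.997, against 0.823 to 0.989 between libraries of different groups. FPKM summed to between 597567 and 637648 per library, and the sequencing depth is unknown. In whole leaves, fewer cells of a type and less RNA per cell cannot be told apart.

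The control means of the members ran from 2.00 to 1844 FPKM with a median of 19.8 FPKM, and 17 of the 70 (24.3%) averaged at least 100 FPKM in control, against 4.18% of all expressed genes. A fall of at least 1 on this scale needs a control level of about 1 FPKM or more, so the rule itself sets part of this difference. The 124 genes that met the NaCl limit and were also at least 1 lower in cold had a control median of 21.9 FPKM, and 16.1% of them averaged at least 100 FPKM. Every member was at 1 FPKM or more in all 3 control libraries, and 57 were at that level in all 24 libraries. Together the 70 genes held 0.805 ± 0.0032% of the FPKM in NaCl leaves and 2.09 ± 0.012% in cold leaves, against 1.85 ± 0.0022% in control leaves (SD, n = 3 each). In trehalose + PEG6000 leaves the share was the highest of the 8 groups, with libraries from 2.56 to 2.81%. The SD of the share, 0.13% there, was also the largest of the 8 groups. The low NaCl share follows from the rule, and abundant genes weigh most in every share. Vitvi19g00581 alone averaged 4424 FPKM in trehalose + PEG6000, 2412 FPKM in cold and 1187 FPKM in control leaves. By group means 46 of the 70 members were below control in cold leaves and 30 in trehalose + PEG6000 leaves. Replicates of a member differed by a median SD of 0.09 on the log2(FPKM + 1) scale, against 0.08 for all expressed genes.

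In the NaCl contrast that chose them, the members were lower by a median of 1.18 on the log2 scale, and the largest change was -2.32. Of all genes tested, 0.962% were called lower at least 2-fold in that contrast by limma at an adjusted p below 0.05. Vitvi11g00518 had 56.8, 57.5 and 59.6 FPKM in the NaCl libraries, against 297, 297 and 288 FPKM in the control libraries. Its log2 change of -2.32 (SE 0.05) was the largest fall among the members. Libraries that do not overlap were a condition for naming a gene, so that trait adds no support. Vitvi17g04225 had 6.71, 6.05 and 3.97 FPKM in NaCl leaves, against 27.1, 30.7 and 27.8 FPKM in control leaves, a log2 change of -2.19 (SE 0.11). Many members lay near the limit: 20 were between -1.1 and -1, the 2 nearest inside it at -1.0007 and -1.0042, and the 2 nearest outside it at -0.9995 and -0.9851. One member, Vitvi05g04186, is listed at 0 in 2 of the 3 NaCl libraries and at 4.60 FPKM in the other, with control libraries from 3.13 to 4.61 FPKM; it is the 1 member listed at 0 anywhere and was singled out after its values were seen.

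In the cold contrast, which the rule also used, the members' differences from control ran from just inside the limit to 4.13, with a median of -0.51. By group means 46 of the 70 members were below their control level in cold leaves by less than 1 on the log2 scale, 14 were above it by less than 1, and 10 were above it by at least 1. These classes describe the values that chose the members and were not tested. As many as 23 members lay between -1 and -0.7; the 2 nearest the limit were at -0.9966 and -0.9833, and the 2 genes just outside it at -1.0224 and -1.0253. Of all genes tested, 11.8% were called higher at least 2-fold in this contrast by limma, and the 10 members at least 1 above control, 14.3% of the 70, lie near that share. Vitvi10g00451 had 134, 129.8 and 129 FPKM in cold leaves, against 6.18, 6.49 and 7.05 FPKM in control leaves, a log2 change of 4.13 (SE 0.10). Vitvi12g00462 averaged 112 ± 1.7 FPKM in cold leaves and 18.1 ± 1.5 FPKM in control leaves (SD, n = 3 each), a log2 change of 2.57 (SE 0.06).

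**Figure D1:**
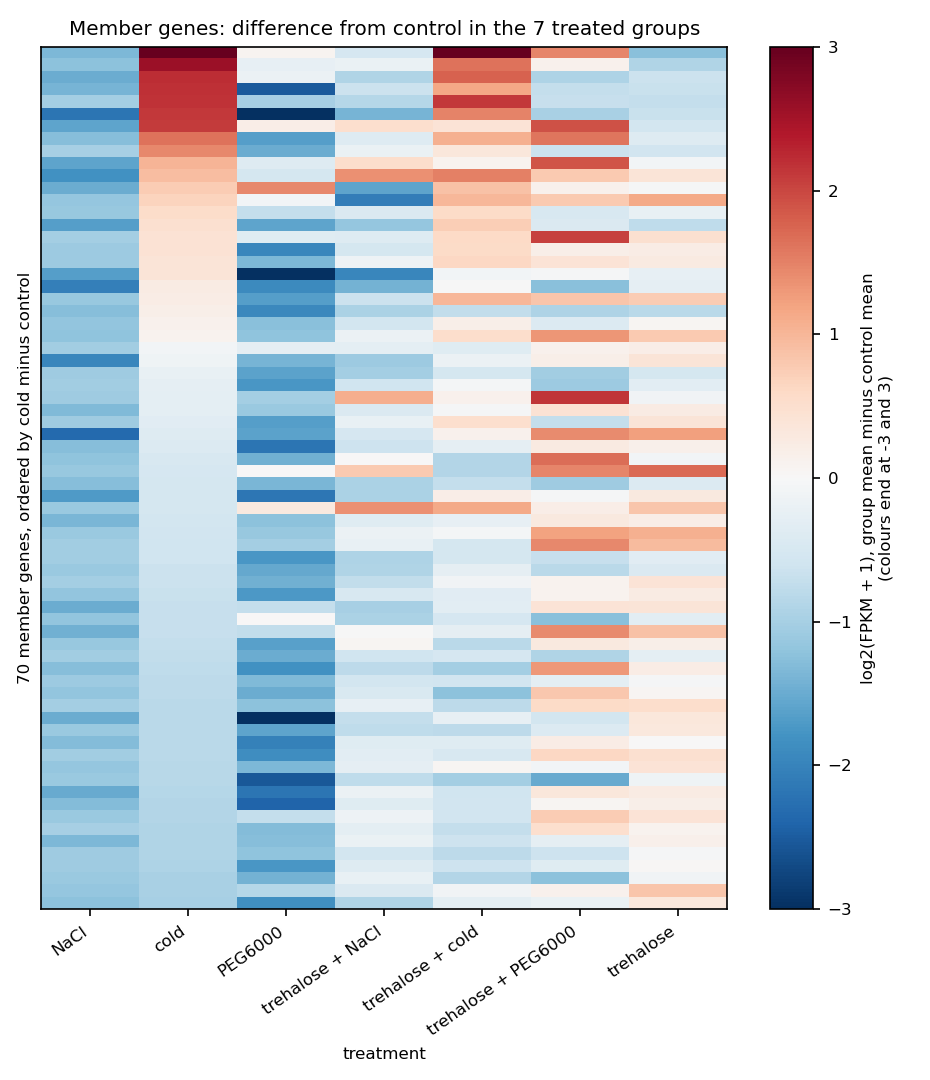
Heat map of the 70 members (rows, ordered by cold minus control) in the 7 treated groups (columns). Colour is the group mean of log2(FPKM + 1) minus the control mean, red above and blue below control. The NaCl column is blue in every row because the rule requires it, the PEG6000 column is at least 1 below control in 51 rows, and the trehalose + PEG6000 column is at least 1 above control in 14.

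Across all 8 groups the lowest level of a member was most often in PEG6000 leaves. The rule sets part of this ranking, since control and cold cannot hold the lowest level and NaCl cannot hold the highest. It also chose members for being high in control. The same counts were not taken over all expressed genes. By group means, 42 of the 70 members were lowest in PEG6000 leaves, 25 in NaCl, 2 in trehalose + NaCl and 1 in trehalose + PEG6000 leaves. The highest level fell in trehalose + PEG6000 leaves for 22 members, in trehalose for 15, in cold for 12 and in control for 10. Taken in each group separately, the median of the members' means was 8.08 FPKM in NaCl, 7.02 in PEG6000, 14.9 in trehalose + NaCl and 25.9 in trehalose + PEG6000 leaves. It was 22.5 FPKM in cold, 28.3 in trehalose + cold, 23.8 in trehalose and 19.8 in control leaves. These medians do not follow the same gene from group to group. The members' median log2 change from control was -0.51 in cold and -0.21 in trehalose + cold leaves, where 46 and 43 of the 70 were below control.

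Whether salt also lowered these genes in leaves given trehalose can be tested in libraries that the rule did not use. In trehalose + NaCl against trehalose leaves, 57 of the 70 members fell, 8 rose and 5 were not called. Among all genes, 16.1% were called lower and 33.4% higher. Of the 57, 16 fell at least 2-fold (0.539% of all genes), and 2 of the 8 rose at least 2-fold (0.888% of all genes). The 57 include Vitvi05g04186, which is listed at 0 in 2 of the 3 trehalose + NaCl libraries. The members' median log2 change was -0.56, against 0.07 for all genes tested. After median-of-ratios scaling 58 members were lower and 8 higher, while all genes divided into 4791 lower and 4359 higher in place of 3237 and 6703. In NaCl against control the change was the more negative for 62 of the 70 members, but the rule chose that contrast for its size and the difference was not tested.

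Vitvi03g04246 was the member that fell furthest. It had 4.77, 4.91 and 4.38 FPKM in trehalose + NaCl leaves, against 50.1, 51.6 and 53.1 FPKM in trehalose leaves, a log2 change of -3.21 (SE 0.06, limma adjusted p = 2.8e-21). All libraries of trehalose + NaCl leaves were also below the 8.37 to 10.8 FPKM of leaves given NaCl without trehalose. Vitvi02g00701 had 14.5, 17.8 and 15.3 FPKM, against 56.7, 52.6 and 54.8 FPKM in trehalose leaves (log2 change -1.73, SE 0.11, limma adjusted p = 8.48e-12). Among the members that rose, Vitvi19g02039 averaged 422 ± 11 FPKM in trehalose + NaCl leaves and 185 ± 6.8 FPKM in trehalose leaves (SD, n = 3 each; log2 change 1.19, SE 0.03, limma adjusted p = 6.99e-18). Vitvi12g02353 averaged 229.9 ± 6.5 FPKM and 109.7 ± 5.4 FPKM in the same groups (log2 change 1.06, SE 0.05, limma adjusted p = 2.13e-13). For all 4 genes the 2 groups do not overlap, which was a condition for naming them.

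**Figure D2:**
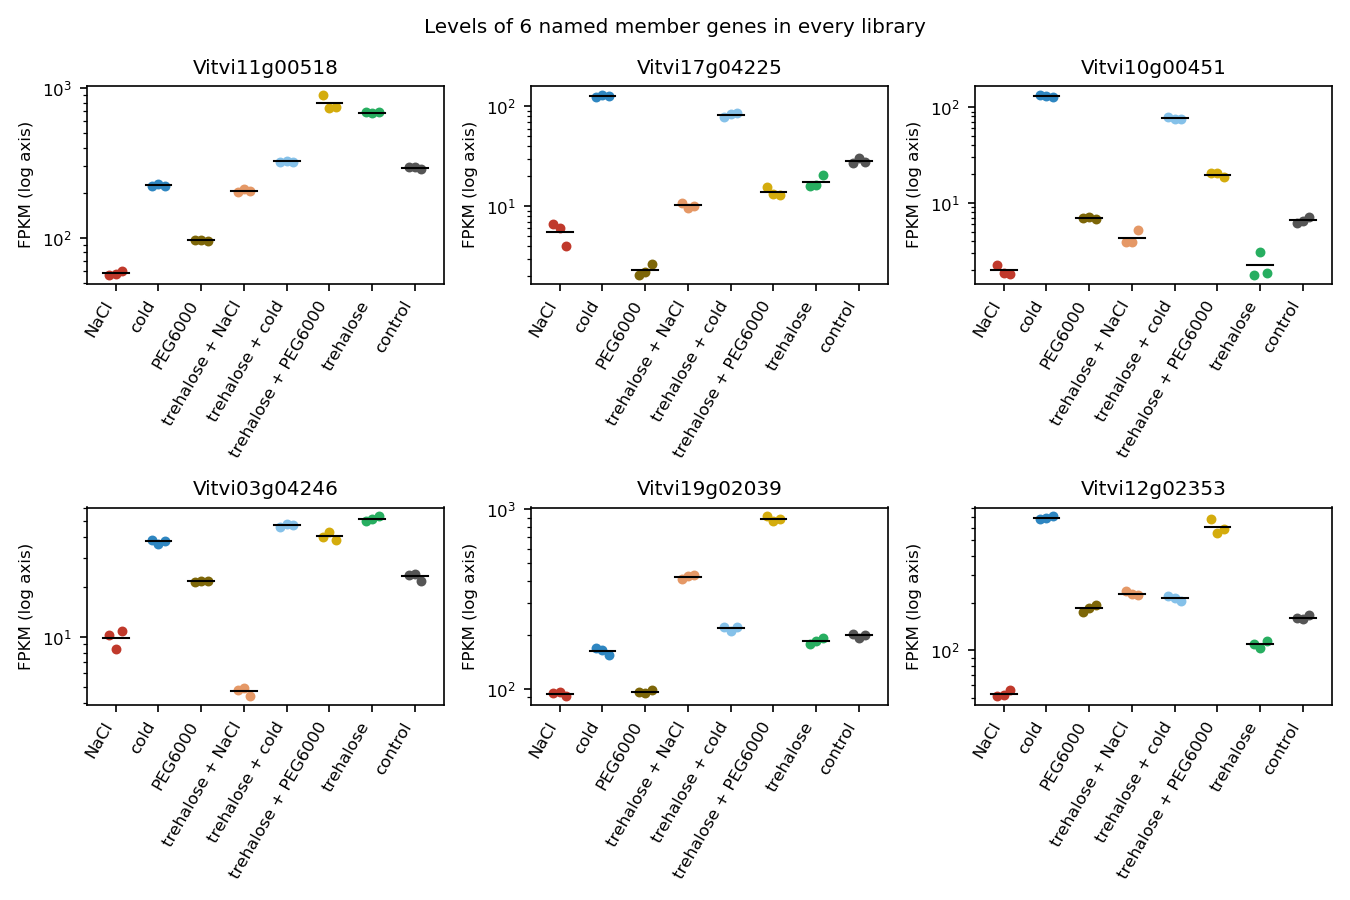
FPKM on a log axis in each of the 3 libraries of the 8 groups for 6 named members; points are libraries and black lines are group means. Vitvi03g04246 is lowest in trehalose + NaCl leaves, Vitvi10g00451 and Vitvi17g04225 are highest in cold leaves, and Vitvi19g02039 is highest in trehalose + PEG6000 leaves.

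Set against NaCl alone, trehalose + NaCl leaves had higher levels of nearly all members. Of the 70, 65 were higher, 2 lower and 3 not called, where 19.9% of all genes were called higher and 32% lower. Both counts use the NaCl libraries in which the members were chosen for being low, so part of the direction follows from the choice. The difference reached 2-fold upward for 15 members (0.863% of all genes) and downward for 0 (3.58%), with a median log2 change of 0.74 over the members and -0.04 over all genes. With median-of-ratios scaling, 65 members were higher and 1 lower, and all genes divided into 5048 and 5105 in place of 3992 and 6424. By group means 59 of the 70 members lay between their NaCl and control levels in trehalose + NaCl leaves, 8 above control and 3 below NaCl. The rule sets those NaCl and control levels at least 1 apart, so a place between them follows in part from the choice. The same count was not taken over other genes.

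Vitvi05g01931 stood far above control in trehalose + NaCl leaves. It had 81.6, 87.8 and 72.6 FPKM there, against 8.87, 7.14 and 7.91 FPKM in NaCl leaves (log2 change 3.19, SE 0.11, limma adjusted p = 6e-17), with control libraries from 29.4 to 31.5 FPKM. Its libraries were also above those of control in cold (56.5 to 60.5 FPKM), trehalose + cold (82.7 to 92.1 FPKM), trehalose + PEG6000 (43.5 to 70.4 FPKM) and trehalose leaves (38.8 to 42.3 FPKM), and below them in PEG6000 leaves (18.8 to 23.3 FPKM). Vitvi07g04602 averaged 9.63 ± 1.4 FPKM in trehalose + NaCl and 0.875 ± 0.17 FPKM in NaCl leaves (SD, n = 3 each; log2 change 2.50, SE 0.14, limma adjusted p = 5.66e-13). The 2 members called lower were Vitvi03g04246 (log2 change -0.92, limma adjusted p = 7.78e-12) and Vitvi02g00701 (-0.32, limma adjusted p = 0.0177). The call for Vitvi02g00701 was lost after median-of-ratios scaling (adjusted p = 0.0717), after quantile normalization (0.0872), and without NaCl replicate 1 (0.0744), trehalose + NaCl replicate 1 (0.0835) or trehalose + NaCl replicate 3 (0.055).

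In trehalose + cold against trehalose leaves, libraries that the rule did not use, 39 members fell, 23 rose and 8 were not called, where 52.6% of all genes were called lower and 30.3% higher. These shares, 55.7% and 32.9% of the members, lie near those of all genes. At 2-fold, 9 members fell and 9 rose, against 11.7% and 11.5% of all genes. With median-of-ratios scaling 34 members were lower and 28 higher, and all genes divided into 8063 and 8152 in place of 10541 and 6074, as the median change of all genes moved from -0.20 to 0.00. Across the 70 genes the cold change without trehalose and the cold change with it had a Pearson r of 0.90 and a Spearman rho of 0.80, and the signs matched for 63; the points share libraries within each axis but none between the axes. The same values were 0.12 and 0.11 for NaCl, with 60 signs matched, and 0.31 and 0.24 for PEG6000, with 37 matched. The rule makes every NaCl change without trehalose negative. The 60 therefore only counts members with a lower mean in trehalose + NaCl than in trehalose leaves. Over all 20053 genes r was 0.94 for cold, 0.55 for NaCl and 0.58 for PEG6000, and the rule narrows the range of the members' NaCl and cold changes without trehalose. Single members could differ widely, as Vitvi03g01763 did with a log2 change of -2.56 under cold with trehalose and -0.51 without it; this difference was not tested.

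The 10 members at least 1 above control in the cold were all called higher in trehalose + cold than in trehalose leaves, 7 of them at least 2-fold. Among all genes 30.3% were called higher, 11.5% at least 2-fold. These members were picked by their cold change without trehalose, and over all genes the cold changes without and with trehalose had a Pearson r of 0.94. Vitvi10g00451 had 78.3, 74.4 and 75.9 FPKM in trehalose + cold leaves, against 1.79, 3.04 and 1.87 FPKM in trehalose leaves (log2 change 4.60, SE 0.10, limma adjusted p = 5.74e-22). Vitvi04g02017 had 341, 319 and 341 FPKM in trehalose + cold leaves, against 45.1, 48.3 and 44.8 FPKM in trehalose leaves (log2 change 2.83, SE 0.04, limma adjusted p = 9.24e-26). Of the 46 members below control in the cold, 38 fell in trehalose + cold against trehalose leaves, 9 of them at least 2-fold, and 4 rose. Among all genes 52.6% fell, 11.7% at least 2-fold. Vitvi03g01763 averaged 3.93 ± 0.55 FPKM in trehalose + cold leaves and 28.1 ± 2.0 FPKM in trehalose leaves (SD, n = 3 each; log2 change -2.56, SE 0.16, limma adjusted p = 5.77e-13). Vitvi09g01272 averaged 1.93 ± 0.14 FPKM and 7.19 ± 0.58 FPKM in the same groups (log2 change -1.48, SE 0.10, limma adjusted p = 2.65e-12). For both of these genes the trehalose level was itself above the control level, which was 7.41 to 8.78 FPKM for Vitvi03g01763 and 3.12 to 3.39 FPKM for Vitvi09g01272.

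**Figure D3:**
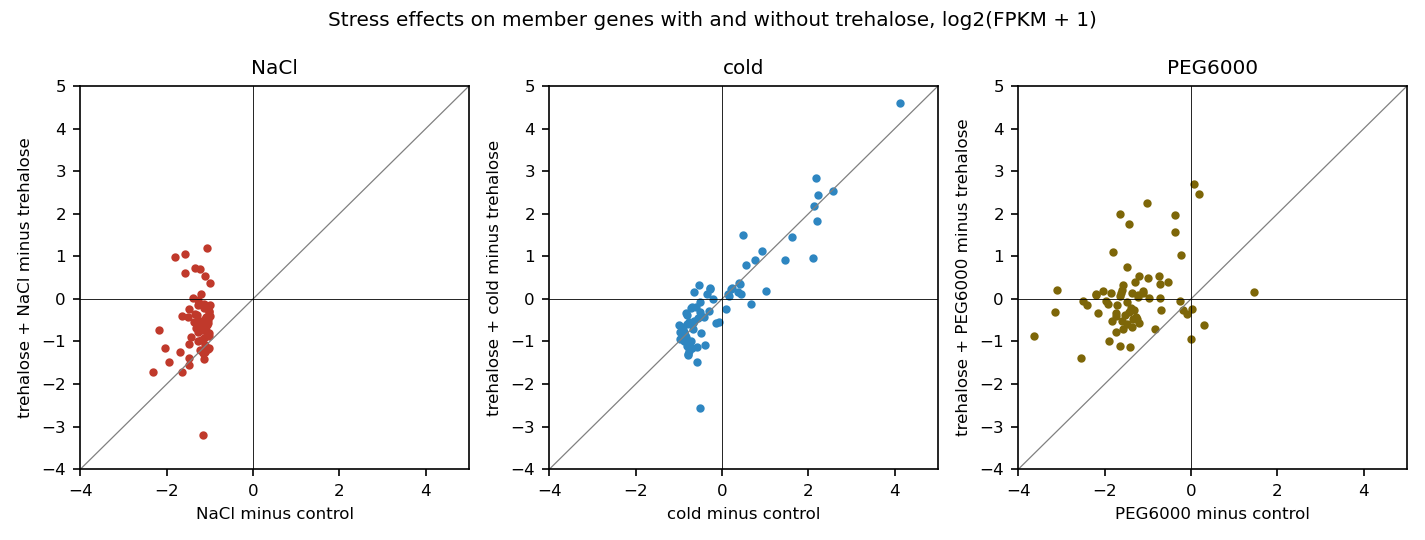
Log2(FPKM + 1) change of each of the 70 members under NaCl, cold and PEG6000, without trehalose (against control, horizontal) and with trehalose (against trehalose, vertical); the grey line marks equal changes. Pearson r over the genes is 0.12 for NaCl, 0.90 for cold and 0.31 for PEG6000, and most NaCl and PEG6000 points lie above the line. The cut at -1 in the NaCl and cold panels is set by the rule.

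The same contrast between salt and cold was then read within trehalose-treated leaves, again without any library of the rule. In trehalose + NaCl against trehalose + cold leaves, 39 members were lower, 20 higher and 11 not called, where 27.7% of all genes were called lower and 56.3% higher. At 2-fold 16 members were lower and 1 higher, against 9.92% and 12.2% of all genes. The split depended on scaling: median-of-ratios scaling gave 49 members lower and 11 higher, with all genes at 8355 lower and 7817 higher in place of 5563 and 11293. Of the 10 members at least 1 above control in the cold, 8 were lower in trehalose + NaCl than in trehalose + cold leaves and 1 higher. The 46 members below control in the cold comprised 18 lower, 19 higher and 9 not called genes, with a median log2 difference of 0.01. Both classes were formed on the cold change without trehalose. Over all genes that change and the cold change with trehalose had a Pearson r of 0.94. Part of each split therefore follows from how the classes were formed.

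Vitvi10g00451 showed the widest gap between these groups, with 3.92, 3.92 and 5.15 FPKM in trehalose + NaCl leaves, against 78.3, 74.4 and 75.9 FPKM in trehalose + cold leaves (log2 difference -3.86, SE 0.10, limma adjusted p = 2.11e-20). Vitvi03g04246 had 4.77, 4.91 and 4.38 FPKM, against 45.6, 47.9 and 47.4 FPKM in trehalose + cold leaves (-3.08, SE 0.06, limma adjusted p = 1.19e-22). In the other direction, Vitvi03g01763 had 15.2, 15.0 and 13.1 FPKM in trehalose + NaCl leaves, against 4.25, 3.29 and 4.26 FPKM in trehalose + cold leaves (1.65, SE 0.16, limma adjusted p = 1.94e-09). Vitvi19g02039 was at 410.3, 424 and 431 FPKM, against 221, 209.6 and 222 FPKM in trehalose + cold leaves (0.95, SE 0.03, limma adjusted p = 1.76e-17).

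In trehalose + cold against cold leaves, 36 members were higher, 17 lower and 17 not called, where 26.5% of all genes were called higher and 17.1% lower. All genes divided into 4362 higher and 5062 lower after median-of-ratios scaling, in place of 5306 and 3425, and the members then into 31 and 21. At 2-fold 1 member was higher and 3 were lower, against 0.848% and 0.329% of all genes. Of the 10 members at least 1 above control in the cold, 9 were lower with trehalose and 0 higher, while of the 46 below control, 29 were higher and 5 lower by limma. These classes were formed on the cold libraries that the comparison uses, which adds to both directions. Vitvi12g02353 had 223, 217 and 207 FPKM in trehalose + cold leaves, against 687, 699 and 710.1 FPKM in cold leaves (log2 change -1.69, SE 0.05, limma adjusted p = 4.88e-17). Vitvi18g00087 averaged 24.9 ± 0.31 FPKM in trehalose + cold and 54.5 ± 2.5 FPKM in cold leaves (SD, n = 3 each; log2 change -1.10, SE 0.09, limma adjusted p = 7.18e-10). Vitvi07g04602 averaged 8.19 ± 2.2 FPKM in trehalose + cold and 1.84 ± 0.30 FPKM in cold leaves (log2 change 1.67, SE 0.14, limma adjusted p = 1.53e-09). Vitvi14g04448, one of the members below control in the cold, averaged 328 ± 8.3 FPKM with trehalose and 177 ± 2.3 FPKM in the cold alone (log2 change 0.88, SE 0.02, limma adjusted p = 5.49e-18).

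PEG6000 lowered most of the members as well. Against control, 63 were lower and 2 higher in PEG6000 leaves and 5 were not called, where 34.5% of all genes were called lower and 42.6% higher. The fall reached 2-fold for 51 members (7.71% of all genes) and the rise for 1 (14.4%), and the median log2 change was -1.41, against 0.05 for all genes. This comparison shares the control libraries in which members were chosen for being high, which adds to the count of falls. Quantile normalization gave 64 members lower and 1 higher, with all genes at 9556 lower and 6331 higher in place of 6919 and 8533, and moved the median of all genes to -0.14. Of the 46 members below control in the cold, 38 were at least 1 below control in PEG6000 leaves, and of the 10 at least 1 above control in the cold, 4 were. The cold and PEG6000 changes subtract the same control libraries, which adds to this split, and it was not tested.

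Vitvi14g01381 fell furthest under PEG6000, with 3.08, 2.21 and 1.78 FPKM, against 38.4, 38.3 and 43.6 FPKM in control leaves (log2 change -3.63, SE 0.10, limma adjusted p = 6.19e-20). Vitvi17g04225 averaged 2.30 ± 0.28 FPKM in PEG6000 and 28.5 ± 1.9 FPKM in control leaves (SD, n = 3 each; log2 change -3.16, SE 0.11, limma adjusted p = 5.56e-18). The 2 members called higher were Vitvi05g04186 and Vitvi12g02353. Vitvi05g04186 had 11.8, 12.4 and 13.5 FPKM in PEG6000 leaves, against 4.61, 4.30 and 3.13 FPKM in control leaves (log2 change 1.45, SE 0.48, limma adjusted p = 0.00844), and the call was lost with a pseudocount of 0.1 (adjusted p = 0.178). The SE rests on 1 spread over all 24 libraries of this gene. That spread takes in 2 NaCl and 2 trehalose + NaCl libraries at 0, which this comparison does not use. Vitvi12g02353 had a log2 change of 0.19 (SE 0.05, limma adjusted p = 0.00307), which was lost after median-of-ratios scaling (adjusted p = 0.0855) and quantile normalization (adjusted p = 0.609).

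Leaves given trehalose with PEG6000 had higher levels of most members than leaves given PEG6000 alone. In trehalose + PEG6000 against PEG6000 leaves, which share no library with the rule, 65 members rose, 3 fell and 2 were not called, where 43.6% of all genes were called higher and 32.9% lower. The rise was at least 2-fold for 49 members (10.9% of all genes), and the median log2 change was 1.50, against 0.08 for all genes. All genes divided into 7239 higher and 7814 lower after median-of-ratios scaling, in place of 8735 and 6606, and the members then into 64 and 3. Vitvi02g00532 had 1486, 1165 and 1190 FPKM in trehalose + PEG6000 leaves, against 135, 128 and 129.8 FPKM in PEG6000 leaves (log2 change 3.27, SE 0.06, limma adjusted p = 1.29e-23). Its SD was 179 FPKM in trehalose + PEG6000 and 3.5 FPKM in PEG6000 leaves. Each SE rests on 1 spread over all 24 libraries of a gene, so it can understate the variation within trehalose + PEG6000 leaves. Vitvi19g02039 had 913, 856 and 882 FPKM, against 96.4, 95.3 and 98.2 FPKM in PEG6000 leaves (log2 change 3.18, SE 0.03, limma adjusted p = 5.84e-27).

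Of the 3 members that fell in this comparison, 2 fell at least 2-fold (8.7% of all genes). Vitvi05g04013 averaged 29.0 ± 0.92 FPKM in trehalose + PEG6000 and 70.9 ± 3.0 FPKM in PEG6000 leaves (SD, n = 3 each; log2 change -1.26, SE 0.06, limma adjusted p = 9.51e-15). Its libraries in PEG6000 leaves, 67.5 to 72.8 FPKM, overlapped those in control leaves, 68.6 to 73.2 FPKM. Vitvi05g04186 had 4.39, 4.37 and 4.66 FPKM in trehalose + PEG6000 leaves, against 11.8, 12.4 and 13.5 FPKM in PEG6000 leaves (log2 change -1.31, SE 0.48, limma adjusted p = 0.0163), and this call too was lost with a pseudocount of 0.1 (adjusted p = 0.23). This SE also takes in the libraries at 0, which lie in groups not compared here.

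Relative to trehalose alone, PEG6000 moved the members in both directions. In trehalose + PEG6000 against trehalose leaves, also free of the rule's libraries, 29 members fell, 22 rose and 19 were not called, where 15.5% of all genes were called lower and 48% higher. At 2-fold 3 members fell and 9 rose, against 0.753% and 6.17% of all genes. The members' median log2 change was -0.05, against 0.15 for all genes, and after median-of-ratios scaling 37 members were lower and 16 higher, with all genes at 5273 lower and 6601 higher in place of 3115 and 9634. Vitvi10g00451 averaged 19.8 ± 1.0 FPKM in trehalose + PEG6000 and 2.23 ± 0.70 FPKM in trehalose leaves (SD, n = 3 each; log2 change 2.71, SE 0.10, limma adjusted p = 8.8e-17). Vitvi12g02353 averaged 611 ± 68 FPKM and 109.7 ± 5.4 FPKM in the same groups (log2 change 2.46, SE 0.05, limma adjusted p = 4.44e-21). Vitvi18g01068 fell, with 1.41, 2.56 and 1.45 FPKM, against 5.62, 6.83 and 6.33 FPKM in trehalose leaves (log2 change -1.39, SE 0.12, limma adjusted p = 2.57e-10). Vitvi12g00118 fell too, at 5.34 ± 0.34 FPKM in trehalose + PEG6000 and 12.9 ± 0.48 FPKM in trehalose leaves (log2 change -1.13, SE 0.09, limma adjusted p = 1.16e-10).

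**Figure D4:**
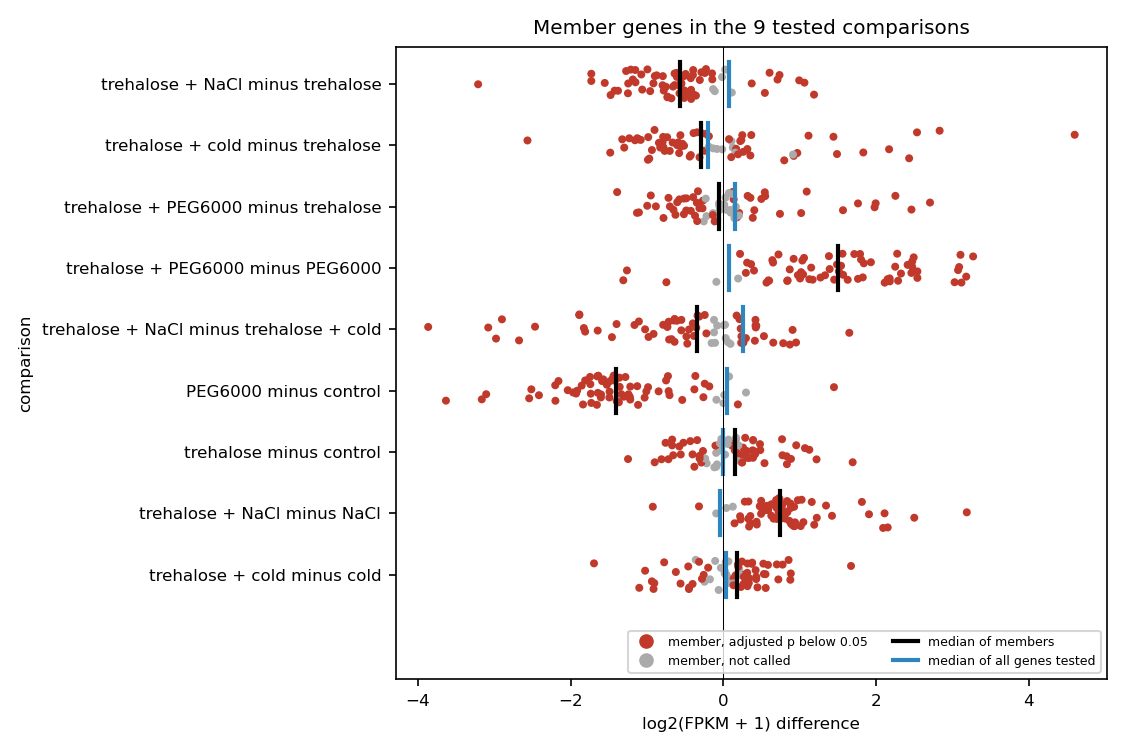
Log2(FPKM + 1) difference of each member in the 9 tested comparisons; each point is a gene, red where the limma adjusted p was below 0.05 and grey otherwise. Black bars are the medians of the 70 members and blue bars those of all 20053 genes tested. The black bar lies at -0.56 for trehalose + NaCl minus trehalose and at 1.50 for trehalose + PEG6000 minus PEG6000, with blue bars at 0.07 and 0.08.

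In trehalose without stress against control leaves, 32 members were higher, 20 lower and 18 not called, where 16.7% of all genes were called higher and 12.3% lower. At 2-fold 4 members were higher and 1 lower, against 1.02% and 0.11% of all genes. All genes divided into 2961 higher and 3196 lower after median-of-ratios scaling, in place of 3355 and 2463, and the members then into 32 and 22. The comparison shares the control libraries with the rule, in which members were chosen for being high. Of the 10 members at least 1 above control in the cold, 9 were lower in trehalose than in control leaves and 0 higher by limma, and of the 46 below control in the cold, 25 were higher and 8 lower. These classes were also formed with the control libraries, and the split was not tested. Vitvi03g01763 had 30.0, 26.0 and 28.2 FPKM in trehalose leaves, against 8.78, 7.81 and 7.41 FPKM in control leaves (log2 change 1.69, SE 0.16, limma adjusted p = 1.77e-08). Vitvi11g00518, the member with the largest fall under NaCl, averaged 686 ± 4.1 FPKM in trehalose and 294 ± 5.4 FPKM in control leaves (SD, n = 3 each; log2 change 1.22, SE 0.05, limma adjusted p = 1.28e-15). Vitvi10g00451 averaged 2.23 ± 0.70 FPKM in trehalose and 6.57 ± 0.44 FPKM in control leaves (log2 change -1.25, SE 0.10, limma adjusted p = 1.1e-09), and Vitvi12g00462 averaged 9.22 ± 0.77 FPKM and 18.1 ± 1.5 FPKM (log2 change -0.90, SE 0.06, limma adjusted p = 1.28e-11).

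The 124 genes lowered to the same limit by both NaCl and cold are the nearest set for comparison, and the values are given side by side without a test of the difference. In trehalose + NaCl against trehalose leaves, 81.4% of the members and 93.5% of the 124 genes fell. In trehalose + PEG6000 against PEG6000 leaves, 92.9% of the members and 96% of the 124 genes rose, with median log2 changes of 1.50 and 2.17. Against control, 90% of the members and 96% of the 124 genes were lower in PEG6000 leaves, and 2.86% and 1.61% were higher. The fall was at least 2-fold for 72.9% and 84.7%. Against NaCl, 92.9% and 95.2% were higher in trehalose + NaCl leaves, 21.4% and 35.5% at least 2-fold, and 2.86% and 0% were lower. These comparisons use control or NaCl libraries, on which both sets were chosen. In trehalose + cold against trehalose leaves the median change was -0.30 for the members and -1.83 for the 124 genes, whose cold response without trehalose was part of the limits.

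By their identifiers the members were spread over the table. The 2 digits that follow "Vitvi" took 19 different values among 67 members, with 7 members under 18, 6 under 4 and 5 each under 2, 3, 12, 14 and 19, and 3 members were PT_newGene identifiers (4.29%, against 2.37% of all expressed genes).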

How the data were processed

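Values are FPKM per gene and library, computed by the authors and deposited as 1 table for 24 libraries without pooling. Tools listed in the submitters' processing notes, in no stated order or role, are StringTie 2.1.3b, SAMtools 1.9, HISAT2 2.1.0 and fastp 0.20.0. For the genome build, annotation and strandedness no source used here gives a value, so reads of near-identical, overlapping or antisense genes may have been divided between them. Low values showed no whole-read steps: between a pair of control libraries, 1911 genes under 0.2 FPKM gave ratios of which at most 1.99% fell in a window of 2%, so no count test was run.

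Columns were matched to samples by name, with 0 left unused, and no 2 libraries were identical (0 identical pairs). Genes at 1 FPKM or more in at least 3 libraries were tested on log2(FPKM + 1), which understates changes of low genes, with limma 3.58.1 in R 4.3.3 (1 mean for each of 8 groups, 16 residual degrees of freedom, variance trend). P-values are two-sided and Benjamini-Hochberg adjusted over 20053 genes within a comparison; a gene was called below 0.05, and 2-fold means a log2 change of at least 1. The step was run on simulated data only for the comparison of trehalose + NaCl with trehalose leaves, with normally distributed noise. Far fewer genes were changed there than were called in the data, so that run does not give the error rates of these tests. Of 9 comparisons tested, 5 use no library of the rule. Per comparison the called members ranked 1 and 2 by rise and by fall were named, if the group with more averaged 5 FPKM or more and libraries did not overlap. For NaCl against control only falls were named, and for cold against control only rises. The members, tests and lists were chosen with earlier results of these data known. Plots used matplotlib 3.10.9 (Python 3.11.15).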

Additional observations from a re-analysis of the deposited data

Results flagged for a closer look

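Trehalose + NaCl and trehalose + cold leaves are compared here for the 4 members named for the largest differences between them. The members were chosen by that same limma test, which therefore adds no support. Measured against trehalose leaves, the NaCl and cold log2 changes were 0.74 and 4.60 for Vitvi10g00451 and -3.21 and -0.13 for Vitvi03g04246. The cold change of Vitvi03g04246 was not called (limma adjusted p = 0.0504). For Vitvi03g01763 both changes were negative (-0.91 and -2.56), and for Vitvi19g02039 both were positive (1.19 and 0.24). The direct differences between the 2 groups follow. The log2 difference was -3.86 for Vitvi10g00451, with 4.33 ± 0.71 FPKM in trehalose + NaCl and 76.2 ± 2.0 FPKM in trehalose + cold leaves (SD, n = 3 each; limma adjusted p = 2.11e-20). It was -3.08 for Vitvi03g04246, with 4.69 ± 0.27 and 46.97 ± 1.2 FPKM in the same groups (limma adjusted p = 1.19e-22). The difference was 1.65 for Vitvi03g01763, with 14.4 ± 1.2 and 3.93 ± 0.55 FPKM (limma adjusted p = 1.94e-09), and 0.95 for Vitvi19g02039, with 422 ± 11 and 218 ± 6.9 FPKM (limma adjusted p = 1.76e-17).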

How the results depend on the processing

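The number of members depended on the processing. It was 150 with a pseudocount of 0.1 (63 of the 70 members among them), 150 with median-of-ratios scaling (70) and 146 with quantile normalization (65), and it ranged from 65 to 75 when a library was left out. With a limit of 2-fold added, which by construction calls fewer genes, members called higher and lower numbered 2 and 16 for trehalose + NaCl against trehalose, 9 and 9 for trehalose + cold against trehalose, 9 and 3 for trehalose + PEG6000 against trehalose, and 1 and 16 for trehalose + NaCl against trehalose + cold. The same limit gave 4 and 1 for trehalose against control, 15 and 0 for trehalose + NaCl against NaCl, 1 and 3 for trehalose + cold against cold, and 1 called higher for PEG6000 against control. Median-of-ratios scaling gave 11 members called higher in place of 20 for trehalose + NaCl against trehalose + cold. For PEG6000 against control, 1 member was called higher in place of 2 with a pseudocount of 0.1, median-of-ratios scaling or quantile normalization, and for trehalose + NaCl against NaCl 1 was called lower in place of 2 with either scaling. Without 1 library that count ranged from 1 to 2; every other count stayed within 1.5 times its value over the 24 such fits. The cause of these shifts was not tested. No named member reversed its sign under any alternative run. The replicate numbers did not pair the libraries: deviations of same-numbered libraries correlated between -0.09 and 0.07. With the replicate number as a block, trehalose + NaCl against trehalose gave 57 members lower and 8 higher as before, and all 36 calls of named members stayed on their side of the threshold. Depth is unknown, so the counting error of low values cannot be given.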
